A study of Mus musculus with 10 samples.

Results

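Dlx2-bound regions listed in the mouse basal ganglia at embryonic day 16 (E16), and in none of the other tissues and ages profiled, are described here. They were chosen by position alone. The 5 deposited lists of Dlx2-enriched regions were pooled on chromosomes 1 to 19 and X, regions overlapping by at least 1 bp were merged, and merged regions built from the E16 basal ganglia list alone were kept. This gave 9377 regions, called basal ganglia-only regions below. They make up 65.9% of the 14227 merged regions that contain a basal ganglia region (95% Clopper-Pearson interval 65.1 to 66.7) and 50.4% of all 18606 merged regions. Each of them is 1 region as deposited. Intervals given here cover counting error only, not variation between animals.

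The assay was ChIP-seq, in which DNA bound by a protein is recovered from fixed chromatin with an antibody and sequenced. An anti-Dlx2 antibody was used on formaldehyde-fixed basal ganglia, cortex and olfactory bulb at E16. The same antibody was used at postnatal day 3 (P3) on bulb and cortex. The labels give neither strain nor genotype for any group, name no treatment, and do not say how many animals went into a library. Each of the 5 groups has 1 Dlx2 library, and the 5 input libraries, made from chromatin without immunoprecipitation, were not analysed here. There are thus no replicates, no p-value is given, and differences between tissues have no replicate check. Binding lists carry no expression, so the dissected tissues could not be checked against expressed markers. The list of the E16 basal ganglia holds 14795 regions, and the others hold between 734 (P3 bulb) and 6333 (E16 cortex), with 1666 for the bulb at E16 and 2139 for the P3 cortex. Read depth is unknown. Absence from a list means that the authors' caller reported nothing there, and the length of a list moves with depth as well as with binding.

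Dlx2 is a homeodomain transcription factor of the subpallium, the ventral part of the embryonic forebrain from which the basal ganglia develop. Homeodomains bind DNA at short AT-rich sites whose core is TAAT, and Dlx proteins are known to prefer TAATTA. Dlx1 and Dlx2 act in progenitors of the ganglionic eminences and promote the production and migration of neurons that use the inhibitory transmitter GABA. Some of these neurons stay and form the striatum, while others move to the cortex and the olfactory bulb, which are the other tissues of the series.

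The sequences in front of 8 genes are given as examples of basal ganglia-only regions at a start site, not as a typical set. They are the 250 bases before an annotated start, from RefSeq promoter windows of GRCm38.p6, the assembly that mm10 corresponds to, written 5′ to 3′ in the direction of transcription. Capitals mark TAAT on either strand, which reads ATTA on the other strand, and so also TAATTA. Emx2, Rufy3, Nckap5 and Ripor2 are the protein-coding genes among the 10 windows with the strongest basal ganglia-only summits, a summit being the position of highest enrichment in a region. Dcx, Otx2, Nsg2 and Gpm6a were chosen after their values were seen, as genes with TAATTA before the start.
Emx2 (chr19:59458440-59458689, plus strand): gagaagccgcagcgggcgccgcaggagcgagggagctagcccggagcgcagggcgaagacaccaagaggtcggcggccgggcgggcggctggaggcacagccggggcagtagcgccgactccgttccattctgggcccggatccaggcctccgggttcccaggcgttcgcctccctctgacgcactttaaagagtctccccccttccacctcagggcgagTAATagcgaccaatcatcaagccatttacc
Rufy3 (chr5:88583263-88583512, plus strand): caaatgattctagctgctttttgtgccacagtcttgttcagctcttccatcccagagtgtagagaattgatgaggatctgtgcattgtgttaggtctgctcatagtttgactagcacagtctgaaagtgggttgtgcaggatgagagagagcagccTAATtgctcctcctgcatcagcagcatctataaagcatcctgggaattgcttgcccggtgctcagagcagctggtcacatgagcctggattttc
Nckap5 (chr1:126830633-126830882, minus strand): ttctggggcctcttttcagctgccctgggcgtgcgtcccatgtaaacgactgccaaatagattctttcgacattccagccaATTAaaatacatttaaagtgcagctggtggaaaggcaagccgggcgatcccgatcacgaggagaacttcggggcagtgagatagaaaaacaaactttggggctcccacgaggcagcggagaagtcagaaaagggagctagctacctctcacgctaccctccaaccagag
Ripor2 (chr13:24581939-24582188, plus strand): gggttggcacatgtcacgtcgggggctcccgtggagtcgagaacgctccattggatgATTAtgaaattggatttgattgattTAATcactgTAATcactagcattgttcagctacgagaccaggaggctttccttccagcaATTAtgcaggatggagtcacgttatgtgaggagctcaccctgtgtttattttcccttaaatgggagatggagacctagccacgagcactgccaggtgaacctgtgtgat
Dcx (chrX:143933220-143933469, minus strand): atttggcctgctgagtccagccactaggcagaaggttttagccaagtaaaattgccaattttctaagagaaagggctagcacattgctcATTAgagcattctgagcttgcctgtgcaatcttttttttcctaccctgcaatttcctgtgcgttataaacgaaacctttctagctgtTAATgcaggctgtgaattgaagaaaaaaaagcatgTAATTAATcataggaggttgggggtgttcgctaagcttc
Otx2 (chr14:48665110-48665359, minus strand): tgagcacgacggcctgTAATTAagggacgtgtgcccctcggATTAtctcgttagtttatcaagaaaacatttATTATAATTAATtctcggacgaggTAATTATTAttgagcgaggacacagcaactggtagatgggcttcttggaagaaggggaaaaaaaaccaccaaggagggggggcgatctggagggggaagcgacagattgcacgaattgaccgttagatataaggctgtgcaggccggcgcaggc
Nsg2 (chr11:32000450-32000699, plus strand): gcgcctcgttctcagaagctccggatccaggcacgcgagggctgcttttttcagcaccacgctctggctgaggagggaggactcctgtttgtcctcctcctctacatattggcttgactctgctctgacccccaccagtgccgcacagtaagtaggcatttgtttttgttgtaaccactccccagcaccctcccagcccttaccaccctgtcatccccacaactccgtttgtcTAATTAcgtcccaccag
Gpm6a (chr8:54954478-54954727, plus strand): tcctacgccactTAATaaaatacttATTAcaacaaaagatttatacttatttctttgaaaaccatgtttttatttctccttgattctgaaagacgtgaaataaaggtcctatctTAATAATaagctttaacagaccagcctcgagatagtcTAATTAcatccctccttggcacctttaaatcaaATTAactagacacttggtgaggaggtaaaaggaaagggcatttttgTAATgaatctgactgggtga
The summits lay at base 240 for Emx2, 167 for Rufy3, 48 for Nckap5, 41 for Ripor2, 207 for Dcx, 58 for Otx2, 211 for Nsg2 and 211 for Gpm6a, counted from the first base shown. In Dcx, which encodes a microtubule-binding protein of migrating neurons, TAATTA began at base 212, beside the summit. In Otx2, a homeobox gene of the rostral brain, it began at bases 17, 77 and 97, on both sides of the summit. It began at base 234 in Nsg2, a neuronal vesicle protein gene, and at base 152 in Gpm6a, a neuronal membrane glycoprotein gene. In Emx2, a homeobox gene of the dorsal forebrain, the window's TAATTA lay after the start and is not shown, and a TAAT lay at base 221. The windows of Rufy3, Nckap5 and Ripor2 held TAAT without TAATTA.

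The regions were weaker and narrower than those shared with another list. Strength is not independent of the rule, so these values are a description. Fold enrichment is the authors' ratio of signal over background at the summit, as the peak caller MACS2 writes it, and −log10 q is its significance. The median fold enrichment was 4.30 in basal ganglia-only regions, with quartiles of 3.71 and 5.44 and a range of 1.23 to 20.3. In the 5355 basal ganglia regions shared with another list it was 5.32, and the highest reached 55.7. The median −log10 q was 7.12 against 11.8, and the median width 444 bp against 690 bp. Regions over 1 kb made up 4.22% of basal ganglia-only regions and 30.5% of shared ones.

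When the basal ganglia list was ordered by −log10 q and divided into deciles, basal ganglia-only regions made up 26.1% of the strongest decile, 50.03% of the next and 76.6% of decile 9. None of the 100 strongest regions was basal ganglia-only, 0 of 100, whose 95% interval reaches 3.62%. They were 42 of the 500 strongest and 185 of the 1000 strongest, and the first of them ranked 124. Among regions of at most 1 kb the share still went from 37.9% in the strongest decile to 77.4% in decile 8.

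**Figure D1:**
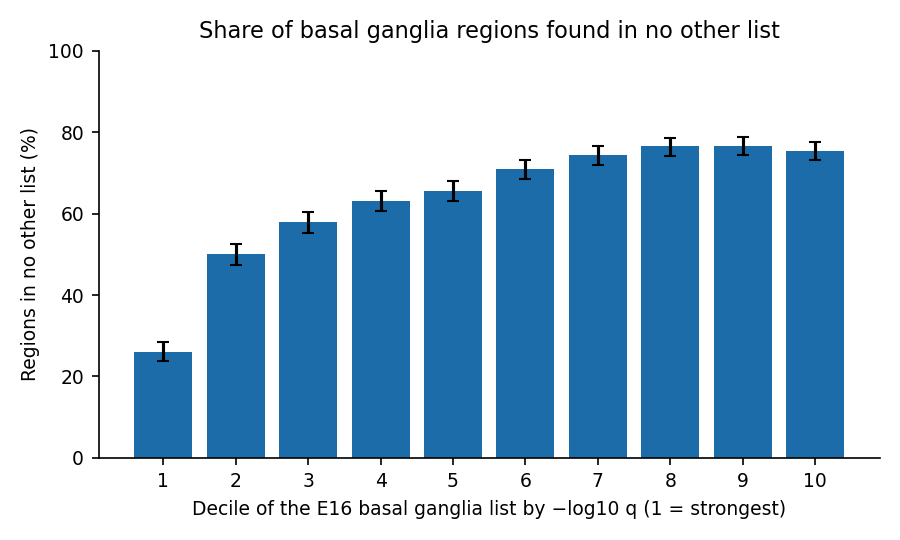
Share of E16 basal ganglia regions found in no other list (%, bars; error bars, 95% Clopper-Pearson interval) in each decile of the list ordered by −log10 q, decile 1 being the strongest. The share is 26.1% in decile 1 and 76.6% in decile 9.

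The 15 strongest basal ganglia-only regions by −log10 q lay within protein-coding genes of several kinds or outside them, in part at a great distance. Genes are those whose body holds the summit, or else the nearest protein-coding gene, and the annotation used has gene boundaries but no exons. The first was within Zfp503, a zinc finger gene of the developing striatum, at chr14:21982003-21986913 on mm10. It had a fold enrichment of 19.4 over 4911 bp, and the nearest region of any other list was 50.5 kb away. Within a gene body lay also the regions in Dpyd, a pyrimidine breakdown enzyme gene (17.0), Mmp16, a membrane-anchored matrix protease gene (18.5), Ccdc192 (11.3), Dcc, the netrin receptor gene of axon guidance (16.6), and Kiz, a centrosomal protein gene (16.8). The Dcc region was 1433 kb from the nearest region of another list.

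The other leading regions lay outside protein-coding genes, although 3 of their summits, those assigned to Pik3c3, Bmper and Tsc22d2, lay within annotated genes without a protein. The region with the highest fold enrichment of all, 20.3, lay on chromosome 18, 1364 kb from Pik3c3, a lipid kinase gene. Regions of 19.7 and 19.1 lay 161 kb from Bmper, a BMP-binding protein gene, and 441 kb from Dusp26, a phosphatase gene. A region of 16.1 at chr2:116323900-116324908 lay 257 kb from the homeobox gene Meis2, and one of 17.4 at chr9:99953937-99955409 lay 78.2 kb from Sox14, a Sox-family gene. The remaining ones were 379.9 kb from Mn1 (18.6), 54.5 kb from Nudt4 (18.5), 279 kb from Tsc22d2 (16.1) and 287 kb from Gm34521 (16.8). The Nudt4 region was 0.432 kb from an E16 bulb region, and so was close to being shared. The Mn1 region had an E16 bulb region at 6.38 kb. Distance does not identify the gene that a region acts on.

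Of the 5 widest regions, the one at Zfp503 was also among the 15 strongest. The widest covered 5199 bp at Six3, a homeobox gene of the anterior forebrain (chr17:85621394-85626592), with a fold enrichment of 8.38. It was followed by the Zfp503 region, a region of 4740 bp located 120 kb from Usp25 (8.09), and 4615 bp at Meis1, a homeobox gene (9.86). Next came 3979 bp within Ptprn2, a gene of secretory vesicles (9.68). The nearest E16 cortex region was 549 kb from the Six3 region and 1632 kb from the Meis1 region.

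Basal ganglia-only regions lay outside genes more often than all shared regions together, but less often than those shared with the E16 bulb alone or the P3 cortex alone. At most 1 kb separated the summit from a gene boundary in 13.8% of cases (1294 of 9377, interval 13.1 to 14.5), against 21.7% of shared regions (20.6 to 22.8) and 6.21% of the genome span. Summits were outside genes in 33.2% (32.2 to 34.1), against 19.6% (18.6 to 20.7) and 52.5%. They were over 100 kb from any protein-coding gene in 18.7%, against 9.26%. With a boundary distance of 2 kb the first share was 21.3%, and with protein-coding genes alone it was 8.63%.

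The stronger basal ganglia-only regions were the more distal ones. In the strongest quartile 7.93% of summits were within 1 kb of a boundary and 41.7% were outside genes, and in the weakest quartile 19.6% and 25.2%. The median fold enrichment was 3.92 within 1 kb of a boundary, 4.30 elsewhere in genes and 4.69 elsewhere outside them. Shared regions differed by partner. Those shared with the E16 bulb alone lay outside genes in 49.5% of 616 cases, and those shared with the E16 cortex alone in 9.12% of 3673. The share was 44.7% of 349 with the P3 cortex alone and 41.5% of 53 with the P3 bulb alone, the latter with an interval of 28.1 to 55.9 that includes the 33.2% of basal ganglia-only regions.

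**Figure D2:**
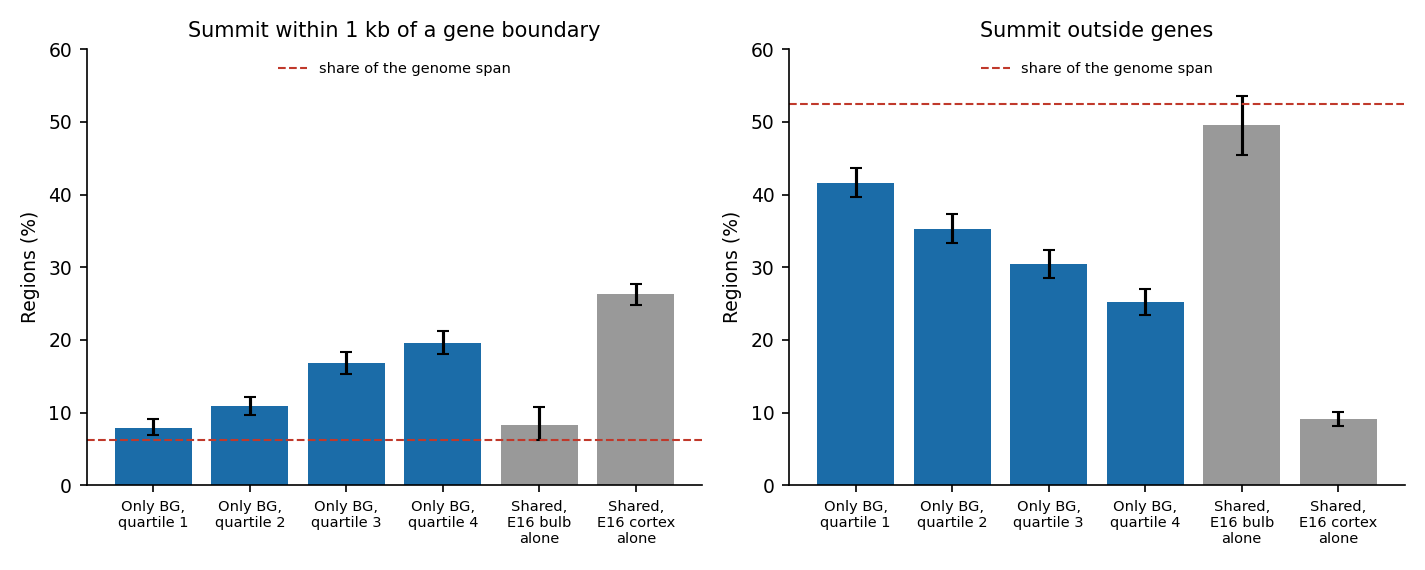
Share of summits within 1 kb of a gene boundary (left) and outside genes (right), in % (bars; error bars, 95% Clopper-Pearson interval), for basal ganglia-only regions in quartiles by −log10 q and for regions shared with 1 other E16 list alone. From quartile 1 (strongest) to quartile 4, the left share goes from 7.93 to 19.6% and the right from 41.7 to 25.2%, with the genome span at 6.21% and 52.5% (dashed).

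The regions were spread over genes unevenly. A gene is said to hold a region when a summit lies between its boundaries or at most 10 kb beyond either of them. Of 21627 protein-coding genes, 4030 held a basal ganglia-only region, which is 18.6%, and this share is the background of each gene group below. Another 3 backgrounds are used: 10.9% of genes held such a region and no shared one, 1.5% held one with a fold enrichment of at least 8, and 1.24% held at least 5. By the same rule 3411 of the 21627 genes held a shared region. With 50 kb in place of 10 the first share was 32.8%. Long genes held them more often, with 8.53% of the shortest quintile of genes and 40.7% of the longest. The median length was 43.0 kb with and 15.1 kb without, so the counts of groups of long genes are given beside their length.

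The genes with most basal ganglia-only regions were Ptprn2 with 30, Msi2, an RNA-binding protein gene of neural progenitors, with 30, and Bcl11b, a zinc finger gene of striatal neurons, with 29. Meis2 held 27, Auts2, a neurodevelopmental gene, 25, Celf4, a neuronal RNA-binding protein gene, 23, and Foxp1, a forkhead gene of striatal neurons, 22. Gad2, which encodes a GABA-synthesizing enzyme, held 19, Zfhx3, a homeobox and zinc finger gene, 18, and Meis1 17. Most of these genes are long. Per 100 kb, Bcl11b held 25.5 and Gad2 20.5, against 3.69 at Ptprn2 and 2.22 at Auts2. Isl1, a LIM homeobox gene of the striatum, reached 22.3 per 100 kb with 7 regions. It was named after its values were seen.

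Neighbouring summits at most 10 kb apart formed runs. There were 312 runs of at least 3, which held 1228 regions, and 4 runs of at least 10. The longest had 17 summits over 49.2 kb at Meis2, and the others had 13 over 21.2 kb at Gad2, 13 over 23.1 kb at Bcl11b and 12 over 40.1 kb at Nr2f2, an orphan nuclear receptor gene of the caudal ganglionic eminence. Shared summits lay inside these runs, with 4 at Meis2, 3 at Nr2f2, 2 at Bcl11b and 0 at Gad2. A run of 9 over 9.94 kb lay at Gad1, which encodes the other GABA-synthesizing enzyme, with fold enrichments of 3.32 to 5.08. Most regions, 6523 of 9377, were in no run.

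At Bcl11b and Gad2 the weaker basal ganglia-only regions stood beside stronger shared ones. Bcl11b held 9 shared regions with fold enrichments up to 25.4, and its basal ganglia-only regions reached 8.40. Gad2 held 2 shared regions, of 13.4 and 16.6, and its basal ganglia-only regions reached 8.87. Meis1 held 1 shared region of 18.5. Six3, Zfp503 and Isl1 held no region of any other list.

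**Figure D3:**
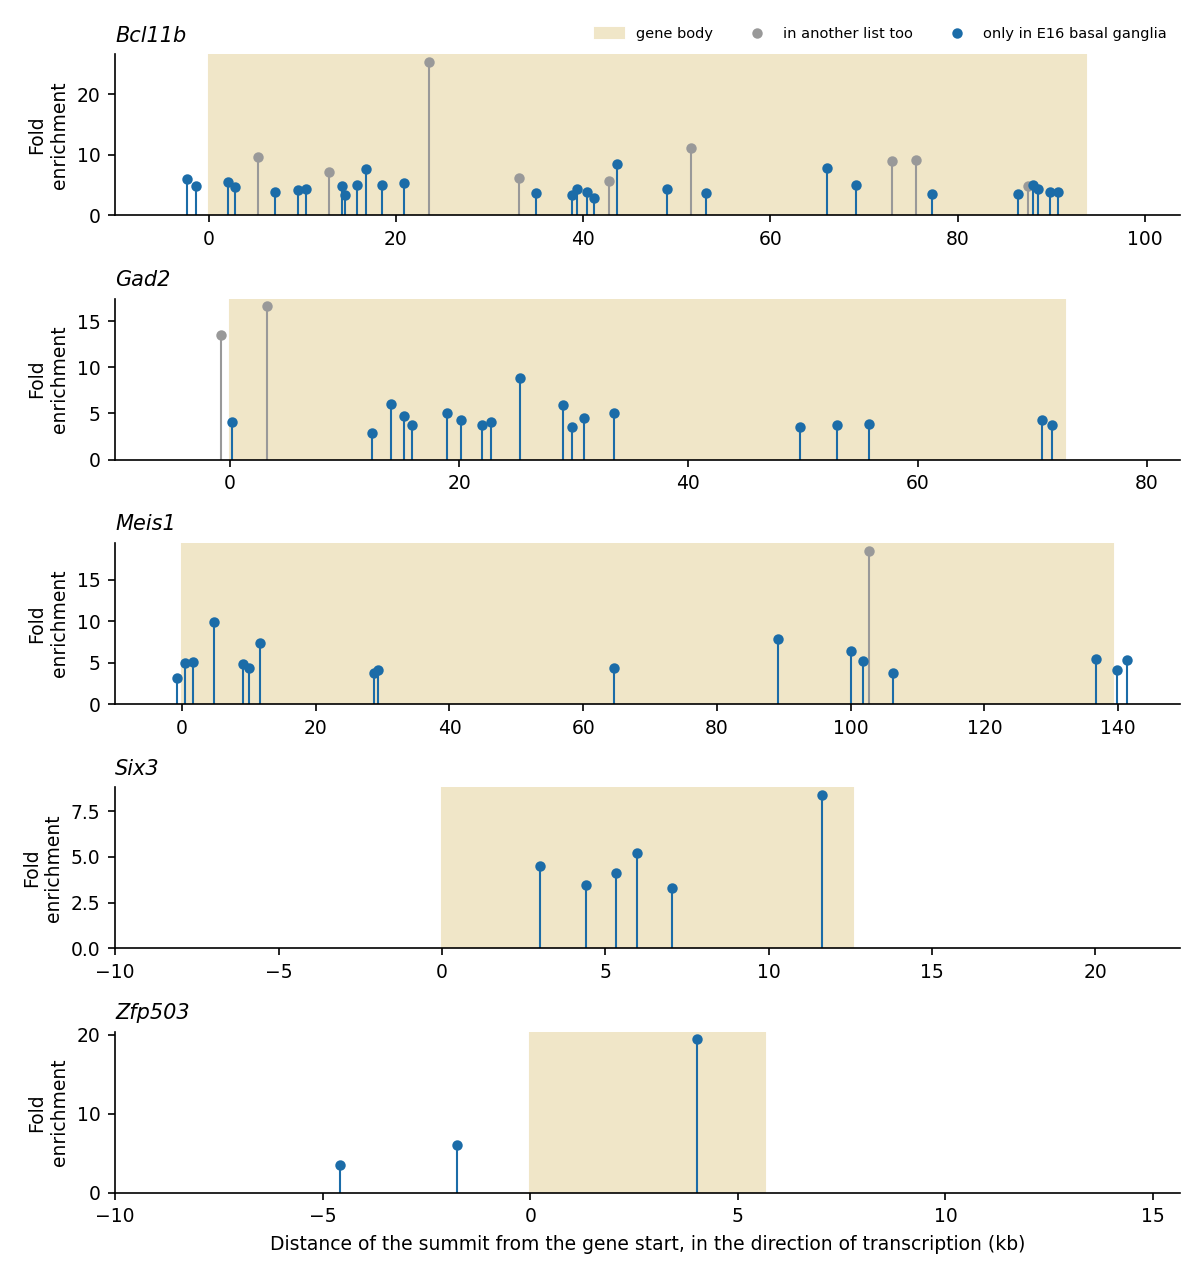
Fold enrichment of E16 basal ganglia regions (vertical axis) by distance of the summit from the gene start in kb, in the direction of transcription, at 5 genes. Blue points are basal ganglia-only regions and grey points are regions in another list too, with the gene body shaded. Bcl11b has 29 blue points, Gad2 19, Meis1 17, Six3 6 and Zfp503 3, the last 2 genes having no grey ones.

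Transcription factors of the ganglionic eminences held basal ganglia-only regions most often among the lists. Of 30 genes, 26 held at least 1, with 180 regions in all, against the background of 18.6%. A region of fold enrichment 8 or more was held by 11 of the 30, against 1.5%, and 12 held at least 5 regions, against 1.24%. Their median length of 16.9 kb was close to the 17.3 kb of all protein-coding genes. In this and the following lists, the genes named as strongest are those highest by −log10 q, and the value given is the fold enrichment. The strongest were at Zfhx3 (13.6), at Vax1, a homeobox gene of the ventral forebrain (12.7), at Meis1 (9.86) and at Sox6, a Sox gene of interneuron precursors (9.37). The 4 genes without one were Gsx1, Nkx2-2, Nkx6-2 and Maf.

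Of these 30 genes, 8 held basal ganglia-only regions and no region of any other list, against 8.67% of all protein-coding genes. Among them were Gsx2, Lhx8, Nkx2-1, Six3, Vax1, Etv1 and Otx2, named after their values were seen. Gsx2 acts in eminence progenitors, and Nkx2-1 and Lhx8 in the medial eminence and its cholinergic and GABAergic derivatives. Nkx2-1 held 3 regions with a highest fold enrichment of 8.99, Lhx8 1 with 5.27 and Gsx2 2 with 4.69. Other factors of the list held both kinds. Lhx6, a factor of migrating cortical interneurons, held 9 basal ganglia-only regions (up to 7.46), 5 shared ones and 7 E16 cortex regions. Zeb2, a zinc finger gene, held 6 basal ganglia-only regions up to 5.04 beside 18 shared ones up to 18.95.

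Striatal projection neuron genes were divided by kind. Of 24, 13 held a basal ganglia-only region and 6 held one of fold enrichment 8 or more. The strongest were at the transcription factor genes Zfp503 (19.4), Isl1 (10.7), Ebf1 (9.98) and Foxp1 (8.46). The dopamine receptor genes Drd1 and Drd2, the adenosine receptor gene Adora2a and the neuropeptide genes Penk, Tac1 and Pdyn, which mark the mature neurons, held none. Foxp4, Ikzf1, Ikzf2, Gpr6 and Adcy5 also held none. Foxp4 held 8 shared regions instead.

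Genes for making and moving GABA held dense but mostly weak basal ganglia-only regions. Of 7 genes, 5 held 43 regions in all. Among the strongest were those at Gad2 (8.87), at Slc32a1, the vesicular transporter gene (6.57), and at Gad1 (5.08). All 5 also held a shared region, Abat, the GABA-degrading enzyme gene, included.

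Olfactory bulb interneuron genes held them in 10 of 14 cases. Of the 14, 6 held them without a region of any other list, E16 and P3 bulb included, against 8.67% of all protein-coding genes. The gene lists overlap. Of these 6 genes, Etv1 and Vax1 are also in the ganglionic eminence list, and Dcx in the migration list. The strongest basal ganglia-only regions were at Robo1, a receptor gene for repulsive guidance (11.5), at Sall1, a zinc finger gene (9.57), and at Dcx (7.82), besides Vax1. Cortical interneuron subtype genes held them in 4 of 16 cases, with Npy, a neuropeptide gene, at 9.57, Reln, the secreted reelin gene, at 7.62, Chodl at 5.10 and Kit, a receptor kinase gene, at 3.91. The subtype markers Pvalb, Sst and Vip held none.

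Migration and guidance genes held them in 30 of 36 cases, and 12 held one of fold enrichment 8 or more. Their median length was 193 kb, far above that of all genes. Dcc led (16.6), followed by Ackr3, a chemokine-scavenging receptor gene of migrating interneurons (12.4), Arhgap15, a GTPase-activating protein gene (12.1), and Robo1 (11.5). Dcc and Ackr3 held no region of any other list. Cxcl12 and Cxcl14, chemokine genes, held no basal ganglia-only region.

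Signalling genes were less often strong. Wnt, Shh, Fgf and Bmp pathway genes held basal ganglia-only regions in 18 of 32 cases, of which 1 reached a fold enrichment of 8, Tcf7l2, a Wnt-pathway transcription factor gene (9.68). The ligand gene Shh held 2, up to 6.90, the Fgf receptor gene Fgfr2 reached 7.46 and the Shh receptor gene Ptch1 6.65. Notch pathway and neurogenesis genes held them in 7 of 20 cases, all below 8. When the E16 cortex list did not take part it was 13 of 20, against 25.5% of all protein-coding genes. Insm1, a zinc finger gene of neuronal progenitors, reached 4.89, the ligand genes Dll3 and Dll1 4.88 and 4.44, and the receptor gene Notch2 4.19. The Notch effector genes Hes1 and Hes5 held 2 shared regions each and no basal ganglia-only one.

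Shared regions were held by 16 of 24 genes of the cortical glutamatergic lineage, against 3411 of all 21627 protein-coding genes. Basal ganglia-only regions were held in 13 of 24 cases. The strongest were at Emx2 (10.9), at the homeobox genes Cux2 (9.77) and Cux1 (7.97) and at Tle4, a corepressor gene (6.45). Emx1 and Neurog2, dorsal progenitor genes, held none, and each held 3 E16 cortex regions.

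Patterning genes of the diencephalon and hindbrain held basal ganglia-only regions in 10 of 20 cases and shared ones in 0. Of all protein-coding genes, 10.9% held a basal ganglia-only region and no shared one, and 3411 of 21627 held a shared one. The strongest basal ganglia-only regions were at Gbx2 (8.40), Dbx1 (4.85), Irx3 (4.67) and Lhx5 (3.98), all homeobox genes. These genes are short, with a median of 6.47 kb. Most held a single weak region, with 12 in all.

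Synaptic gene lists stood above the background of 18.6%, and their genes are long. Of all genes in the longest quintile, from 57.8 kb up, 40.7% held a basal ganglia-only region. Synapse organizer genes did so in 15 of 20 cases (median length 138 kb), with the neurexin genes Nrxn3 (11.9) and Nrxn2 (7.09), the neurexin-related Cntnap2 (9.97) and the neuroligin gene Nlgn1 (9.15) the strongest. GABA-A receptor subunit genes (median length 160 kb) held no shared region, against 3411 of all 21627 protein-coding genes with one. They held a basal ganglia-only region in 5 of 12 cases. With regions of −log10 q of at least 5 it was 3 of 12, against 14.1% of all protein-coding genes. Gabra5 reached 7.89, Gabrb2 4.99 and Gabrg3 3.71. Glutamate receptor genes (median length 319 kb) did so in 9 of 17 cases. Among them the NMDA receptor gene Grin2d reached 8.60, and the kainate receptor genes Grik2 and Grik3 7.56 and 6.64.

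Groups chosen for contrast were not all nearer to the background of 18.6% than the other lists. Cortical interneuron subtype genes, at 25%, stood nearer to it than neuron survival or ubiquitous genes. Neuron survival and apoptosis genes held basal ganglia-only regions in 5 of 19 cases, led by the neurotrophin receptor gene Ntrk2 (6.08), with Bax (4.69) and Mcl1 (4.44). Ubiquitous genes did so in 5 of 16, none reaching 8, with Eef1a1 at 4.49, Ywhaz at 4.10 and Polr2a at 3.45. The count of ubiquitous genes depends on the lists. With regions of −log10 q of at least 5 it was 3 of 16, against 14.1% of all protein-coding genes. When the E16 cortex list did not take part it was 9 of 16, against 25.5%. The ganglionic eminence count was 26 of 30 under both. Liver and muscle markers did so in 0 of 10 cases.

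Markers of other brain cells were mixed. Oligodendrocyte markers held basal ganglia-only regions in 2 of 10 cases, Olig2 (8.79) and Mog (3.91). Olig2, a basic helix-loop-helix gene that also acts in eminence progenitors, held 3 of the 4 regions. Astrocyte markers did so in 4 of 10, with the nuclear factor genes Nfia (9.14) and Nfib (5.97), the glutamate transporter gene Slc1a3 (3.83) and Sox9 (3.50), while Gfap and Aqp4 held none. Microglia markers did so in 4 of 10, with P2ry12 (4.30), Aif1 (4.10) and C1qa (3.55), and endothelial and mural markers in 1 of 10, Pecam1 (3.04).

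**Figure D4:**
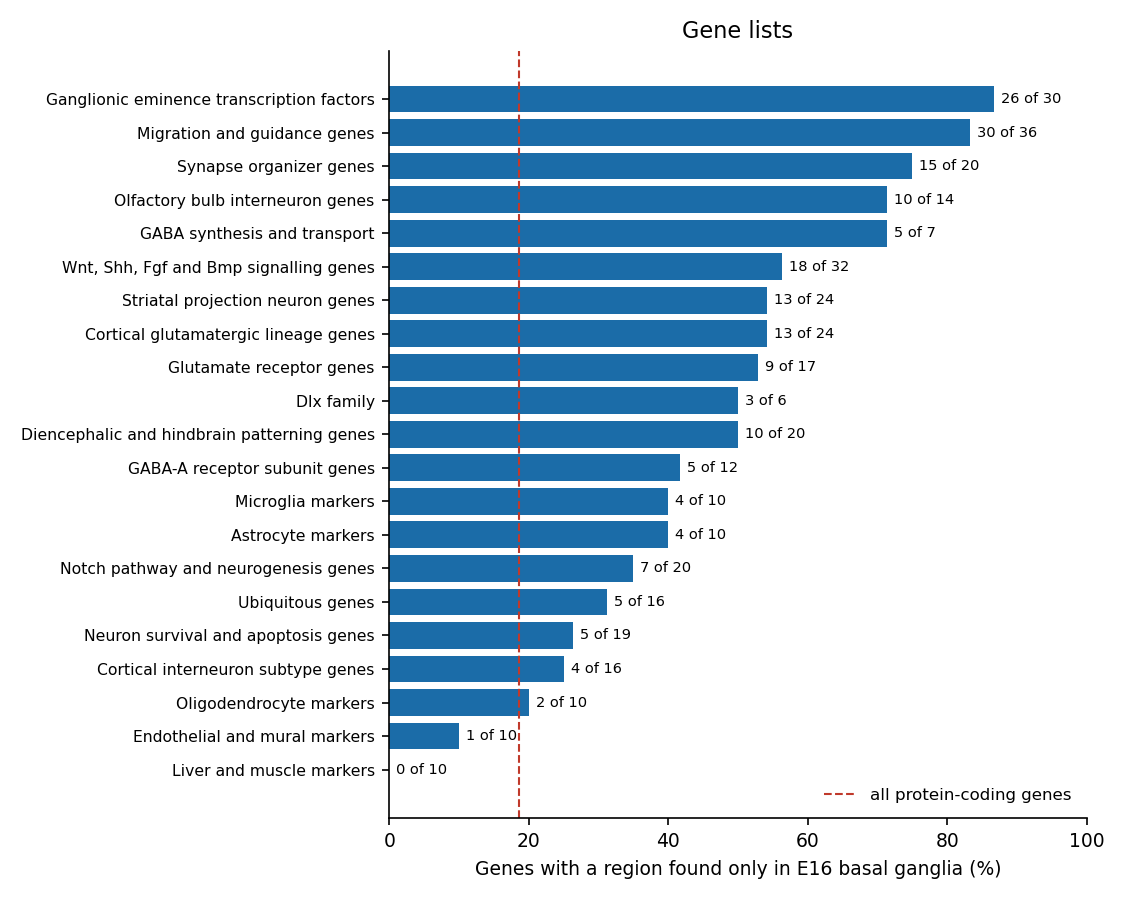
Share of genes in each list that hold a basal ganglia-only region between its boundaries or at most 10 kb beyond (%, bars, with counts), with the share of all protein-coding genes dashed. Ganglionic eminence factors stand at 26 of 30, liver and muscle markers at 0 of 10, and all genes at 18.6%.

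Of the 6 Dlx genes themselves, 3 held a basal ganglia-only region, against 18.6% of all protein-coding genes. At Dlx1 and Dlx2 these regions were weaker than the strongest shared one. Dlx1 held 4, the strongest 8.88 kb outside the gene with a fold enrichment of 6.25, and Dlx2 held 2, the nearer one 1.32 kb outside the gene with 4.77. A shared region within Dlx2 had 35.3. Dlx4 held 1 of 3.91, and Dlx3, Dlx5 and Dlx6 held none. The nearest basal ganglia-only summit was 58.3 kb from Dlx5 and 43.8 kb from Dlx6. Cxcl14 had none within 10 kb, the nearest being 66.6 kb away with a fold enrichment of 4.12.

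Promoter windows gave the only view of sequence, since no genome was used. Of 32585 RefSeq windows of 300 bases, from 250 before to 50 after a start, 311 held a basal ganglia-only summit, 278 summits at 292 genes in all. Motifs were searched on both strands. TAATTA, which contains TAAT and reads the same on both strands, was in 10.9% of these windows (34 of 311, interval 7.69 to 14.9) and in 5.26% of all windows (5.02 to 5.50). In the 135 windows with a shared summit it was in 14.8% (9.29 to 21.9), an interval that overlaps the one above. TAAT was in 72.7% against 58.0% of all windows. Some of the 311 windows overlap and share a summit, as at Dcx. The counts and intervals here and below treat each window as separate.

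Other motifs differed from all windows by varying amounts. CCAAT was in 47.9% against 37.6%, and GGGCGG, a GC box, in 44.7% against 35.9%. In windows of protein-coding genes alone, TAATTA was in 11.1% against 4.47%, CCAAT in 51.9% against 38.5%, and GGGCGG in 47.3% against 46.6%. ATGCAAA, an octamer-type site, was in 8.04% of all windows with a basal ganglia-only summit against 4.66% of all windows. The E-box CAGCTG was in 18.0% against 16.4%, and TGACTCA, an AP-1 site, in 3.86% against 5.23%. Base composition moves with these shares, with a median GC content of 55% in windows with a basal ganglia-only summit and 53% in all. The median count of the dinucleotide CG was 15 against 7, and 17 against 13 in windows of protein-coding genes alone. TAATTA is rarer in GC-rich windows. It was in 25% of windows with a basal ganglia-only summit and 11.4% of windows with no basal ganglia summit in the GC-poorest tertile, in 11.4% and 3.09% in the middle tertile, and in 1.87% and 0.716% in the GC-richest. In windows with a shared summit it was in 62.5% (10 of 16), 11.5% and 5.97% in the same order.

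Where TAATTA occurred it lay close to the summit. The median distance from summit to the nearest TAATTA was 38.5 bp, and in 21 of 34 windows it was within 50 bp, as in Dcx and Otx2 above. For TAAT the median was 36 bp and for CCAAT 47 bp, while for CAGCTG it was 78 bp and for ATGCAAA 110 bp. A motif that occurs more often in a window is nearer to any point in it, and the effect of this was not tested. When the windows were divided at the median −log10 q, TAATTA was in 13.5% of those with stronger regions (21 of 155, interval 8.59 to 19.96). In those with weaker regions it was in 8.33% (13 of 156, interval 4.51 to 13.8), and the intervals overlap. The median GC content was 54% in the stronger windows and 56.7% in the weaker ones. The effect of this difference on the shares was not tested.

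**Figure D5:**
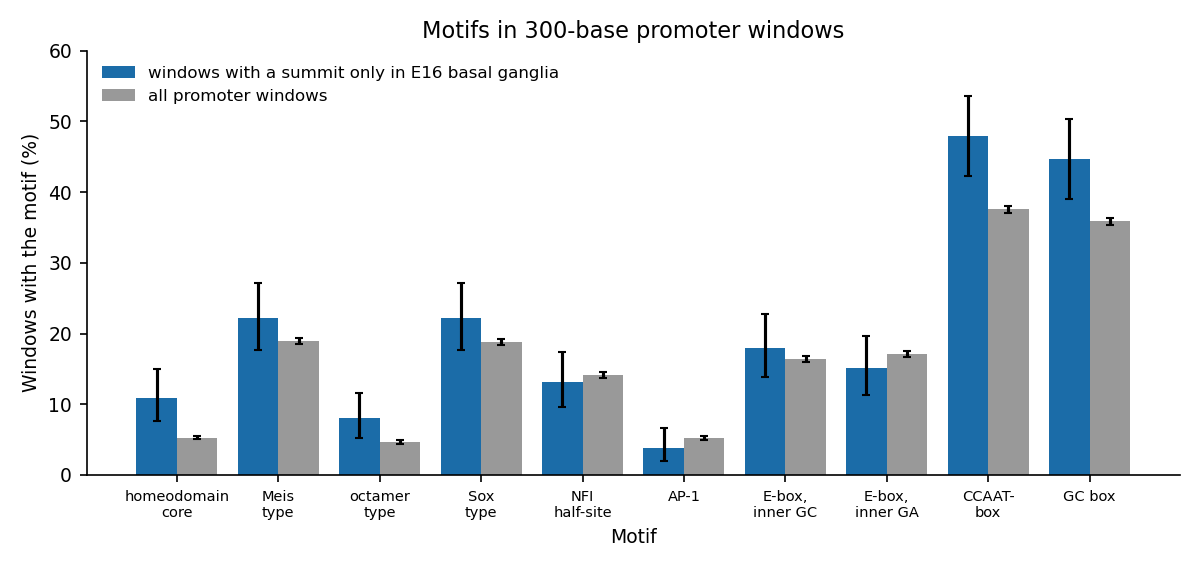
Share of 300-base promoter windows with each motif on either strand (%, bars; error bars, 95% Clopper-Pearson interval), for 311 windows with a basal ganglia-only summit (blue) and all 32585 windows (grey). The homeodomain core, TAATTA, stands at 10.9% against 5.26% and the CCAAT-box at 47.9% against 37.6%, while the AP-1 site stands at 3.86% against 5.23%.

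The rule divides regions that nearly touch. Of the basal ganglia-only regions, 753 (8.03%) lay within 1 kb of a region of another list and 2147 (22.9%) within 10 kb, of which 1694 were near an E16 cortex region. The median gap was 63.3 kb, and 3791 (40.4%) were over 100 kb from any. Just inside the rule were regions at Celsr2, which lay end to end with an E16 cortex region, near Nmb and at Adgrb2, with gaps of 1 and 2 bp to one. Their fold enrichments were 3.91, 3.91 and 4.11. Just outside were regions at Maged1 and Trim2, overlapping E16 cortex regions by 1 and 2 bp, and at Prr14, overlapping an E16 bulb region by 3 bp. These had 4.84, 3.55 and 3.49.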

How the data were processed

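Dlx2 ChIP-seq was deposited as 1 list of called regions for each of 5 tissue and age groups. Per the submitters' processing notes, the build was mm10 and the tools were Trimmomatic, Bowtie2, SAMtools and MACS2, with no version given. The sources used here do not give the calling threshold, the control library or the read depth. Per the labels' protocols, negative controls with rabbit IgG were run, and libraries were read on either of 2 sequencer models. The fold ratio, the −log10 p-value and the −log10 q-value of a region are the authors' deposited values, and they were used only within a list. The authors' deposited score column was not used. Region names mark removed duplicates in all lists but the P3 cortex list, where 0 do.

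From these lists, regions were merged and counted with Python 3.11.15, pandas 2.3.3 and SciPy 1.17.1. The 63 basal ganglia regions on other chromosomes were left out. Genes, promoter windows and miRNAs came from RefSeq tables of GRCm38.p6. They give no exons, and the windows cover none of chromosome 18, so distance to either gene boundary replaced distance to the start and motifs were counted in windows only. The merging and counting were tested on simulated lists.

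The regions and all gene lists were chosen with earlier results of these data known. Named genes are those at the 15 strongest and 5 widest regions, the 10 genes with most regions, up to 4 per list by −log10 q, the 10 strongest promoter windows, Dlx1, Dlx2, Dlx5, Dlx6 and Cxcl14, and the 3 regions nearest either side of the rule. Of the 10 windows, 6 belong to genes without a protein, namely Gm40122, Gm52623, Gm31920, Gm52247, A230103O09Rik and Gm42156. Some genes that the rule takes are not reported here.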

Additional observations from a re-analysis of the deposited data

How the results depend on the processing

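No paired analysis was possible because each group has 1 Dlx2 library. Of 56 alternative values, 28 stayed within the counting interval (or within 1.5 times, for the number of regions) and 28 moved. Leaving out each other list in turn gave 9430 to 13065 basal ganglia-only regions, a share of the list of 66.3 to 88.7%, a median fold enrichment of 4.30 to 4.48, 13.5 to 17.3% of summits within 1 kb of a boundary, 26.4 to 34.2% outside genes and 18.7 to 25.5% of genes. Leaving out the E16 cortex list gave the highest of each, except for the share outside genes, where it gave the lowest.

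Counting regions within 1 kb of another list as shared gave 60.6%, 4.31, 12.6%, 34.6% and 16.8% in the same order. Keeping −log10 q of at least 5 gave 62.1%, 4.69, 11.97%, 35.8% and 14.1%. Without regions over 1 kb the share of the list was 76.6%, with 14.7% near a boundary, 31.8% outside genes and 20.03% of genes. A 2 kb boundary gave 21.3%, and protein-coding genes alone gave 8.63% near a boundary and 42.2% outside. Extending genes by 5 or 50 kb gave 16.5% or 32.8% of genes. The cause of these shifts was not tested beyond the change in setting. With depth unknown, the lists show only that a missing region was not called.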

Other observations

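Of all protein-coding genes, those in the lists included, 1875 (8.67%) held basal ganglia-only regions and no region of any other list, and 34 of them held at least 5. They were led by Cadm1, a synaptic adhesion gene, with 15 regions up to a fold enrichment of 6.61, Csrnp3 with 11 (8.18), Esrrg, an orphan nuclear receptor gene, with 9 (8.36), Carmil1 with 9 (5.67) and Dach1 with 8 (11.8). Vti1a, a vesicle fusion gene, held 7, of which the strongest had 14.5. These genes were named after their values were seen, and most are long.

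The regions were sparse on chromosome X, as was the whole basal ganglia list there, 118 of its 177 regions (66.7%) being basal ganglia-only. Their density was 0.691 per Mb, against 3.11 on chromosome 16 and 4.96 on chromosome 2, the ends of the range over chromosomes 1 to 19. The sex of the animals is not given in the labels.

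Of the regions, 42 (0.448%) had a summit within 1 kb of an annotated miRNA hairpin, against 57 (1.06%) of shared basal ganglia regions. They reached 48 of 1005 hairpins (4.78%). The summit 25 bp from the hairpin of Mir153, which lies within Ptprn2 (chr12:117250817-117250885, plus strand), had a fold enrichment of 7.62. It was chosen after its value was seen. The mature miRNAs are shown with the seed, bases 2 to 8, in capitals, and come from RefSeq.
mmu-miR-153-3p: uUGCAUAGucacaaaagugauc
mmu-miR-153-5p: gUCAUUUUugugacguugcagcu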
